A study of Saccharomyces cerevisiae with 12 samples.

Results

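Expression profiles of 12 yeast RNA samples fell on opposite sides of 1 main axis of variation, 6 arrays on each side, and the sides crossed the furfural labels. The arrays with high stress-gene signal, called the stress profile here, carry the labels control 70 mM, TAL 70 mM and TAL 0 mM. The arrays with high ribosomal protein signal, the growth profile, are the control strain labelled 0 mM and the TAL-ADH strain under either dose label. Of the 6 stress-profile arrays 4 are labelled 70 mM and 2 are labelled 0 mM, and of the 6 growth-profile arrays 2 are labelled 70 mM and 4 are labelled 0 mM. The 12 arrays are the whole series. The sides were set from the measured values of all genes, so every difference in gene level between them is given below as a description with no test.

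All strains were Saccharomyces cerevisiae derived from MT8-1X, a strain that ferments the pentose sugar xylose. The labels give the control strain as MT8-1X/404-405, the TAL strain as MT8-1X/TAL-405 and the TAL-ADH strain as MT8-1X/TAL-ADH, and each was exposed for 6 h to 0 or 70 mM furfural with 2 runs per group. The genes behind TAL and ADH are not named in the labels, and the values of TAL1 (transaldolase) and ADH1 (alcohol dehydrogenase) are given for that reason. Each sample was total RNA labelled with Cy3 on 1 single-colour Agilent array. Whether both runs came from separate cultures is not stated, and the p-values therefore rest on a run-to-run spread that could be technical.

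Furfural is an aldehyde released when plant biomass is broken down, and it inhibits yeast fermentation. Yeast reduces it to the alcohol with NADPH- and NADH-dependent reductases. In budding yeast, many kinds of stress raise genes for chaperones, redox enzymes and drug pumps and lower genes for ribosomes, the translation machinery and ribosome assembly, while fast growth shows the opposite pattern. The regulators Yap1, Hsf1, Msn2 and Msn4, Rpn4 and the Pdr1 family act on different parts of the stress set, and the factors Fhl1, Ifh1 and Sfp1 act on ribosomal protein genes.

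Values are log2 spot intensities, averaged over the spots of a probe, after subtracting the array's own 75th percentile over gene probes, so a level of 0 is the 75th percentile and each unit is a doubling. They are levels relative to the rest of an array, and in RNA from whole cultures fewer cells of a type and less RNA per cell cannot be told apart. Between 94.8% and 97.9% of gene spots on an array were well above background, and 6083 of 6256 gene probes were kept for being well above background on both arrays of at least 1 group. The 75th percentile ranged from 2529 to 7414 intensity units, and the runs of a group correlated across genes at r = 0.945 to 0.985. The arrays lay on 3 slides. The groups labelled control 0 mM and TAL-ADH 70 mM shared a slide, as did control 70 mM and TAL 70 mM, and TAL 0 mM shared a slide with TAL-ADH 0 mM, the only slide that holds both sides. The scan dates divide the arrays in the same way.

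On the main axis, which held 61.5% of the variance over the 6083 genes, the stress-profile arrays scored between 31.6 (TAL 0 mM run 1) and 54.9 (TAL 70 mM run 2). The growth-profile arrays scored between -47.0 and -39.1 (TAL-ADH 0 mM run 1), with no array between the sides. Of all 12 arrays, those nearest to the other side were thus the TAL 0 mM and TAL-ADH 0 mM arrays of run 1. Mean profiles of groups on the same side correlated across genes at 0.940 to 0.973 in the stress profile and at 0.983 to 0.992 in the growth profile. Across the sides the correlation was 0.861 to 0.872. The number of genes at least 1 log2 apart between group means ran from 54 to 225 within the growth profile, from 376 to 1187 within the stress profile, and from 1612 to 2064 across the sides. The growth-profile groups lay closer together than the stress-profile groups by every one of these values, although strain and dose label vary on both sides. The second axis, with 12.2% of the variance, spread the stress-profile groups out, with control 70 mM at -35.0 and -25.6, TAL 70 mM at -2.26 and 2.55, and TAL 0 mM at 30.4 and 35.2.

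**Figure D1:**
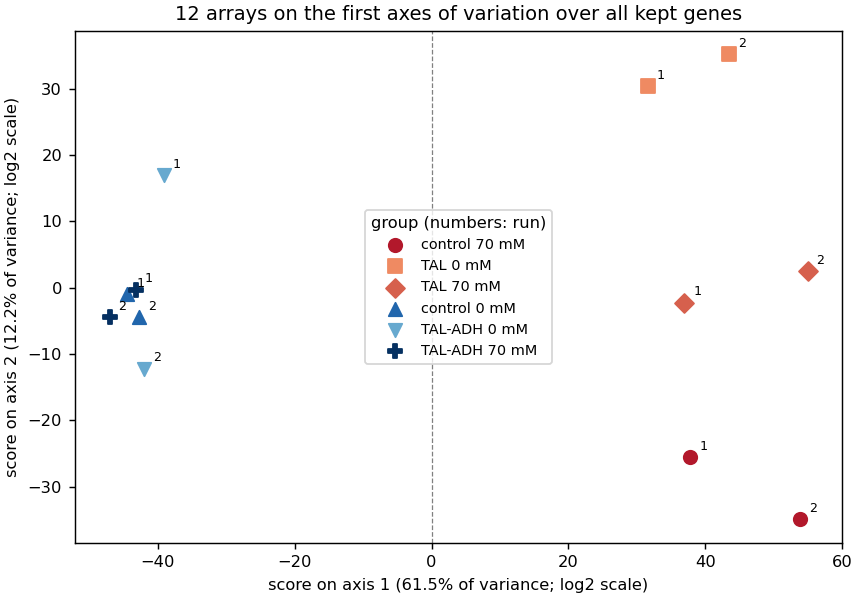
Scores of the 12 arrays on the first and second axes of variation over 6083 genes, in log2 units summed over genes, with symbols for the 6 groups and the run number beside each point. The stress-profile groups lie at 31.6 or more on axis 1 and are spread along axis 2, and the growth-profile arrays lie at -39.1 or less.

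A gene was counted as higher or lower on the stress side where the mean of its 6 arrays differed by at least 1 log2 from that of the growth side and the 6 and 6 arrays did not overlap. By this criterion 546 of 6083 genes (8.98%) were higher in the stress profile and 707 (11.6%) were lower. Of these, 209 were higher and 203 lower by at least 2 log2, and 74 and 92 by at least 3. The median difference of all kept genes was -0.09. The values just inside and just outside the criterion were 1.001 for NNK1 and 0.997 for PHO8 above, and -1.0005 for YRB1 and -0.9998 for SLD5 below. On the 1 slide that holds both sides, TAL 0 mM against TAL-ADH 0 mM, 1021 of these 1253 genes differed by at least 1 log2. Their direction there is fixed by the criterion, which used the same arrays. The median ratio of the difference on that slide to the difference over all arrays was 0.952 for the higher genes and 0.947 for the lower ones. The higher genes had a median length of 1272 bp in the RefSeq gene table and the lower ones 945 bp, or 1048.5 bp without cytosolic ribosomal protein genes, against 1230 bp over all kept genes with a length.

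The genes farthest above in the stress profile were mostly oxidoreductases, a transporter and little-studied open reading frames. FRM2, a nitroreductase-like gene, ranged from 2.36 to 3.44 with a median of 2.65 on the stress side and from -4.75 to -4.07 with a median of -4.36 on the growth side. Its side means differed by 7.18 log2 (145-fold), and no array of either side lay within 6 log2 of the other side. GRE2, which encodes a methylglyoxal reductase, ranged from 3.21 to 3.89 (median 3.36) against -3.17 to -2.21 (median -2.42). The multidrug transporter gene FLR1, a target of Yap1, ranged from 4.53 to 5.40 (median 4.91) against -0.59 to -0.14 (median -0.30). FLR1 and GRE2 were thus nearly level over the 6 stress-profile arrays, with labels of 0 and 70 mM alike. CIS1 was less even within the stress side. It stood at 3.45 and 3.96 in control 70 mM, 2.09 and 1.75 in TAL 70 mM, and 1.64 and 0.82 in TAL 0 mM, against -5.31 to -4.38 on the growth side. The putative aryl-alcohol dehydrogenase gene AAD4 differed by 5.46 and OSI1, named for its induction by oxidative stress, by 6.43. The quinone-reductase-like gene YLR460C differed by 5.58. Of the other open reading frames in the top 12, YKL070W differed by 7.01, YCL027C-A by 5.95, YDR278C by 5.43, YLR108C by 5.26 and YLL056C by 5.15.

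The 12 genes farthest below were all cytosolic ribosomal protein genes, from RPL21A at -4.70 to RPS4B at -3.89. RPL21A ranged from -5.34 to -3.75 (median -4.25) on the stress side and from 0.04 to 0.63 (median 0.36) on the growth side. RPS4B ranged from -1.10 to -0.36 (median -0.81) against 2.98 to 3.22 (median 3.06). These genes were chosen from those with no overlap between the sides. By that choice the TAL 0 mM arrays lie with the stress side and the TAL-ADH 70 mM arrays with the growth side. The 12 genes included RPL8A, RPS9B, RPS8B, RPS26B, RPL27B, RPS11A, RPL43B, RPS4A and RPL25, between -4.16 and -3.93. Paired ribosomal protein genes are nearly identical, so their probes may share signal.

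**Figure D2:**
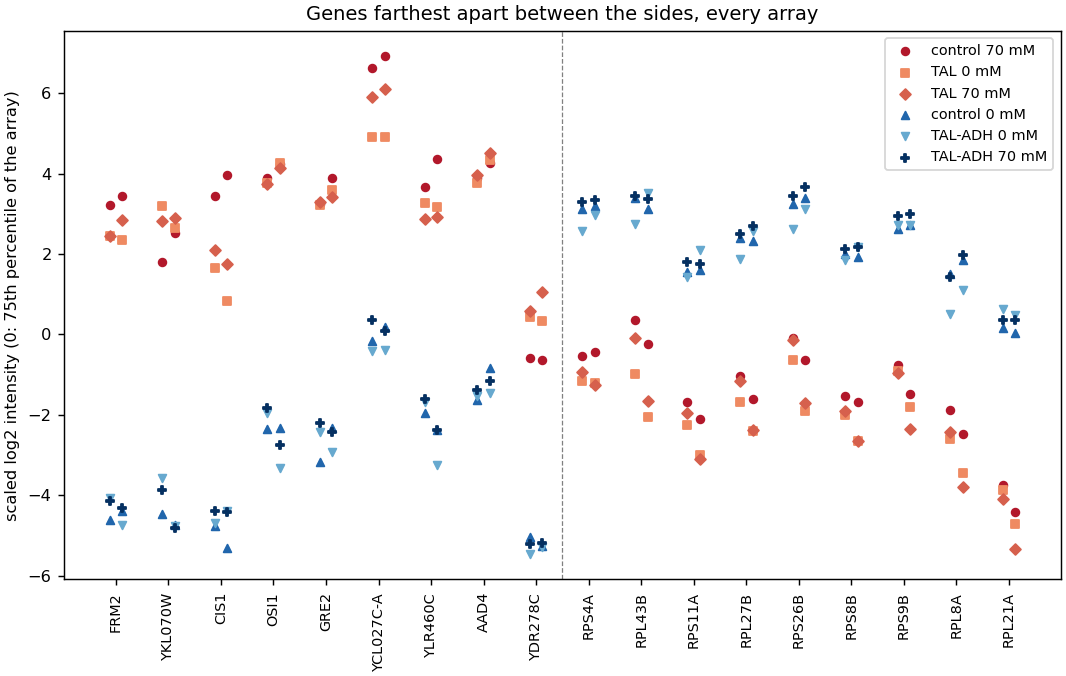
Scaled log2 intensity (0 is the 75th percentile of an array) of the 9 genes farthest above and the 9 farthest below in the stress profile, with every array shown and run 1 left of run 2. The 18 genes were chosen from those in which the 6 stress-profile arrays do not overlap the 6 growth-profile arrays.

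Among enzymes that act on aldehydes, 17 of 25 aldehyde reductases and related oxidoreductases were higher and 1 was lower, with a list median of 1.98 against -0.09 over all kept genes. The mean level of the list ranged from 1.39 to 1.81 on the stress side and from -0.85 to -0.62 on the growth side. The exception was ADH6, an NADPH-dependent alcohol dehydrogenase of broad range, at -1.56, while its relative ADH7 stood at 3.01 above. The old yellow enzyme genes OYE3 and OYE2 differed by 3.41 and 2.15. Of 11 alcohol and aldehyde dehydrogenases other than ADH1, 4 were higher, namely SFA1 (4.32), a glutathione-dependent formaldehyde dehydrogenase, the acetaldehyde dehydrogenases ALD4 (3.40, mitochondrial) and ALD6 (3.03, cytosolic), and ALD3 (1.44). ADH5 at -1.30 and the acetyl-CoA synthetase ACS2 at -1.02 were lower, and the list median was 0.37. Probes for ADH1, ADH2, ADH3 and ADH5 may share signal.

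The redox, drug-resistance and chaperone lists stood mostly above. Of 30 oxidative stress and thioredoxin genes 17 were higher and 1 lower (median 1.27). They were led by FLR1, by the sulfiredoxin gene SRX1, which ranged from 1.44 to 3.55 (median 2.34) against -3.17 to -1.92 (median -2.49), and by the glutathione transferase gene ECM4 (4.65). DOT5, a nuclear peroxiredoxin gene, was the lower one at -1.14. Of 17 kept pleiotropic drug resistance genes of 18 measured, 11 were higher and 0 lower (median 2.11), among them RSB1, a lipid exporter gene, at 4.88, the efflux pump gene SNQ2 at 4.55 and the regulator gene YRR1 at 3.44. Of 32 heat shock proteins and chaperones 25 were higher and 0 lower (median 1.96). The plasma membrane protein gene HSP30 ranged from 4.97 to 6.64 (median 5.34) against 0.87 to 2.33 (median 1.83), and the HSP70 gene SSA4 differed by 3.13. BTN2, which sorts misfolded proteins, differed by 3.58 but spread over nearly 4 log2 on the growth side, from -1.48 to 2.44. The mitochondrial cochaperone gene MGE1 went the other way, at -1.06 with overlap between the sides.

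Protein turnover and sulfur supply followed the same direction. Of 33 proteasome genes 18 were higher and 0 lower (median 1.06), and the side means of the lowest member differed by 0.27. In the 4 that differed among the stress-profile groups by the test given further below, control 70 mM lay near the growth-profile mean. Its group means were -0.31 against -0.10 for PRE3, 0.83 against 0.83 for RPN12, -0.36 against -0.43 for PRE1 and 1.05 against 1.03 for PRE9. RPN4, the transcription factor of the proteasome genes, ranged from 3.66 to 4.04 (median 3.80) against 1.48 to 1.92 (median 1.71), one of the narrowest spreads on the stress side among the genes shown. The subunit genes PRE8 and RPN10 differed by 1.51 and 1.47. Of 25 sulfate assimilation and methionine genes 20 were higher and 0 lower, and the list median of 2.24 was the highest of all 36 lists. The methionine permease gene MUP3 differed by 4.31, the regulator gene MET32 by 4.26 and MET17, which makes homocysteine, by 3.62. Of 32 autophagy genes 6 were higher and 0 lower (median 0.37), including the ER-phagy receptor gene ATG40 at 2.86, the kinase gene ATG1 at 2.82 and the perinuclear ER receptor gene ATG39 at 1.83. Of 16 iron uptake genes kept of 19, FRE3 (2.10), FIT1 (1.45) and AFT2 (1.43) were higher and FET4 (-1.18) was lower. Over all kept genes 8.98% were higher and 11.6% lower.

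Regulators of stress genes were themselves unequal. Of 18 stress transcription regulators 9 were higher and 0 lower (median 1.16), with CIN5 at 2.90, XBP1 at 1.91 and YAP1 at 1.88. MSN2 differed by 1.80 while its partner MSN4 stood at -0.69 with overlap. Among 10 regulators of ribosomal protein genes, CRF1, a corepressor gene, was 2.37 above and STB3, a repressor gene of ribosome assembly factors, 1.06 above, and 0 were lower. General stress surface and hydrophilin genes were higher in 7 of 24 and lower in 0 (median 1.01). GRE1, a hydrophilin gene, showed a wide spread, from -0.66 to 4.86 (median 1.77) against a median of -2.10 and a highest value of -0.85. SPG4 and YGP1 differed by 3.86 and 3.78. Trehalose and glycogen genes had no common direction, with a median of -0.11. NTH2 (3.15) and ATH1 (2.05), for trehalases, and the phosphatase regulators PIG2 (2.56) and GAC1 (1.42) were higher, and the glycogen phosphorylase gene GPH1 (-1.78) was lower.

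Carbon metabolism was split by pathway. Of 20 genes of glycolysis and pyruvate decarboxylase 0 were higher and 7 lower (median -1.14), led by TDH2 (-2.63), a glyceraldehyde-3-phosphate dehydrogenase gene, and the enolase genes ENO2 (-2.18) and ENO1 (-2.16). TDH2 ranged from -1.19 to 0.52 (median -0.15) against 1.51 to 3.69 (median 2.08). The mean level of the glycolysis list overlapped between the sides, at 2.04 to 2.85 against 2.79 to 4.09. Its list median relative to the growth-profile mean was -0.58 in control 70 mM, -1.44 in TAL 0 mM and -1.50 in TAL 70 mM. On the growth side it was 0.45 in control 0 mM, -0.41 in TAL-ADH 0 mM and -0.11 in TAL-ADH 70 mM. Among 17 gluconeogenesis and glyoxylate cycle genes 8 were higher and 0 lower (median 1.37), including the acetate transporter gene ADY2 (2.57), PCK1 (2.40), which encodes phosphoenolpyruvate carboxykinase, and ACS1 (2.07). Of 16 fatty acid oxidation genes the catalase gene CTA1 (3.61), the carnitine carrier gene CRC1 (1.59), PXA1 (1.34) and FOX2 (1.14) were higher and 0 were lower (median 0.92). Hexose transporter genes were mixed, with HXT5 (2.62), HXT9 (2.01), HXT11 and HXT12 higher and HXT16 (-1.37) lower of 20. HXT11 and HXT12 were well above background on all 6 stress-profile arrays but on only 1 and 3 of the 6 growth-profile arrays, so the size of their differences is not given. These transporter genes are near-identical copies in part. Of 13 pentose phosphate pathway genes the glucose-6-phosphate dehydrogenase gene ZWF1 (1.92) and NQM1 (1.69), the relative of TAL1, were higher and RKI1 (-1.05) was lower. Such small counts are near the 8.98% higher and 11.6% lower of all kept genes. In the tricarboxylic acid cycle, with 17 genes, the citrate synthase gene CIT3 (2.22) was higher.

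Growth functions stood below. Of 138 cytosolic ribosomal protein genes 135 were lower and 0 higher, with a median of -3.12. The mean level of that list ranged from -1.02 to 0.00 on the stress side and from 2.19 to 2.81 on the growth side. RPL10 (0.17), RPL15B (0.08) and RPS27A (-0.29) were the members not counted as lower. RPL10 ranged from 3.83 to 4.72 (median 4.13) against 3.50 to 4.42 (median 4.17), so that the sides overlapped. Of 30 translation factors 16 were lower (median -1.18), led by ANB1 (-2.81), an eIF5A gene, and by EFT1 (-1.85) and EFT2 (-1.73), which encode the same elongation factor and whose probes may share signal. Of 68 ribosome assembly factors 21 were lower (median -0.74), with NSA2 (-2.01), CBF5 (-1.98) and NOP56 (-1.94) the farthest below. Of 19 RNA polymerase I and III subunits 6 were lower (median -0.84), led by the polymerase I genes RPA49 (-1.98), RPA43 (-1.86) and RPA12 (-1.64). Only 3 of 75 mitochondrial ribosomal protein genes were lower, a smaller share than the 11.6% of all kept genes. They were MRPL32 (-1.54), MRP21 (-1.36) and MRPL23 (-1.15), and the list median was -0.42. None of these 4 other lists had a higher member.

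Cell cycle genes also stood below, and biosynthesis lists differed among themselves. Of 26 cyclins and S-phase genes 13 were lower and 0 higher (median -1.35). The G1 cyclin gene PCL1 ranged from -4.95 to -3.49 (median -4.10) against -1.38 to 0.82 (median -0.62), the ribonucleotide reductase gene RNR1 differed by -2.73 and the sliding clamp gene POL30 by -2.48. RNR2, another subunit gene, went the other way by 0.33 with overlap. Of 10 lysine synthesis genes LYS9 (-3.76), LYS12 (-3.10), LYS21 (-2.06) and LYS2 (-1.24) were lower, and of 12 branched-chain amino acid genes ILV5 (-3.24) and ILV1 (-1.18). The branched-chain count is near the 11.6% lower of all kept genes. Of 24 ergosterol synthesis genes 9 were lower and 0 higher (median -0.79), including the squalene epoxidase gene ERG1 (-1.82). Of 25 purine and pyrimidine synthesis genes only IMD3 (-1.79) and IMD4 (-1.01) were lower, a smaller share than over all genes, and the list median was -0.15. Endoplasmic reticulum folding genes showed no common direction, with ERO1 (2.23) higher and SIL1 (-1.57) and FPR2 (-1.19) lower of 17. These counts are near the 8.98% higher and 11.6% lower of all kept genes. Core histones (11 genes) and glycerol metabolism (11 genes) had no member past the criterion in either direction.

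Related genes were also compared in pairs. Of 54 pairs, chosen with earlier results of these data known and with a few genes in more than 1 pair, 25 (46.3%) had differences of opposite sign, near the 49.6% of all pairs of kept genes. In 2 pairs 1 member was higher and the other lower, ACS1 (2.07) with ACS2 (-1.02) and ADH7 (3.01) with ADH6 (-1.56). In 5 pairs both were higher and in 3 both were lower. TRX2, a cytosolic thioredoxin gene, ranged from 4.87 to 6.62 (median 5.73) against 1.92 to 3.19 (median 2.78), while TRX1 stood at -0.98, with no overlap between the sides but short of the 1 log2 criterion. NTH2 differed by 3.15 and NTH1 by -0.30, and the catalase genes CTA1 and CTT1 by 3.61 and 0.52. LYS21 differed by -2.06 and LYS20 by 0.99, although both encode homocitrate synthase.

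**Figure D3:**
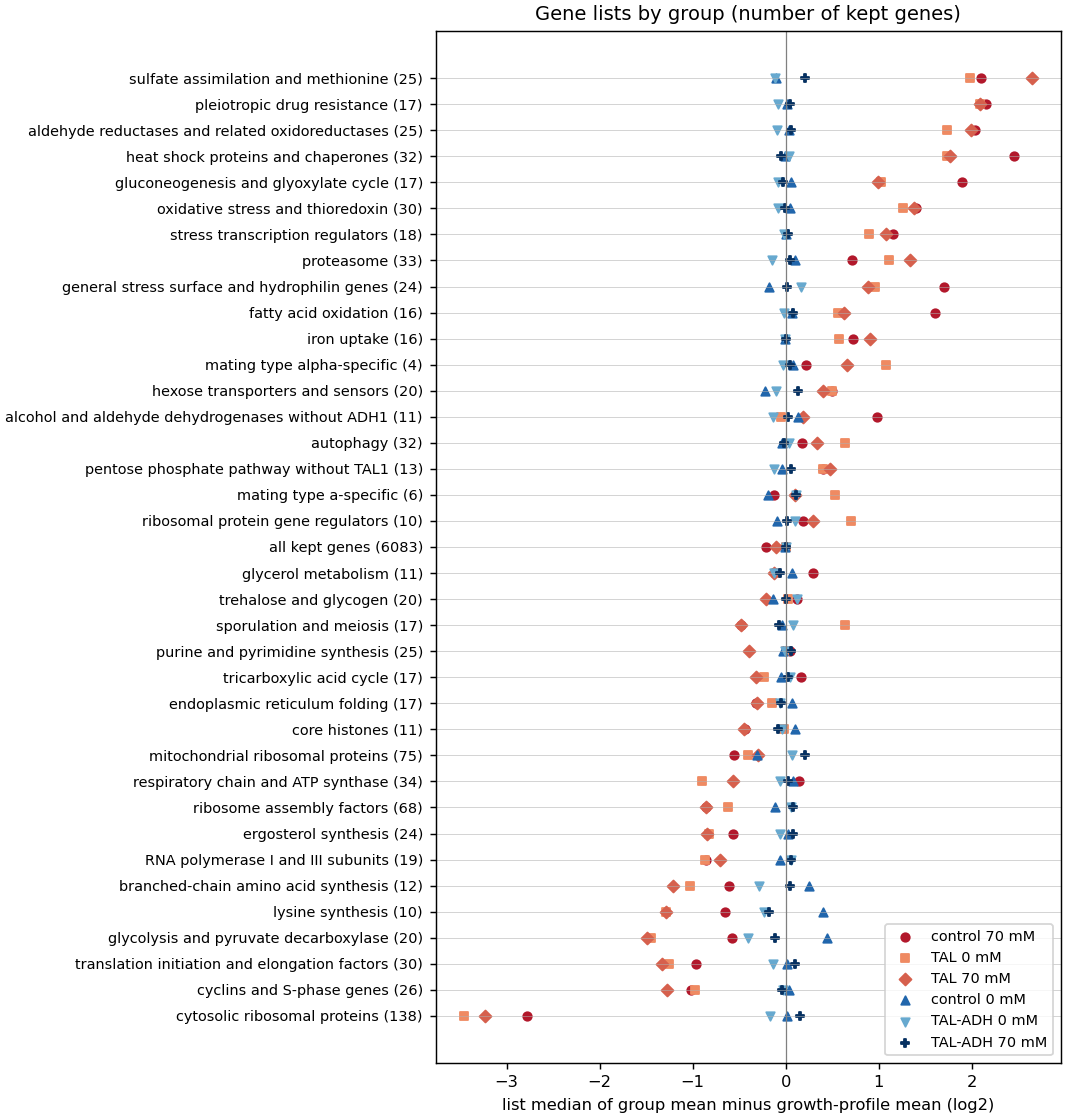
For 36 gene lists and all kept genes, the list median of each group's mean minus the mean of the 6 growth-profile arrays (log2), sorted by the median side difference, with the number of kept genes in brackets. At the top and bottom of the plot the 3 stress-profile groups lie on the same side of the growth-profile mean. Control 70 mM parts from TAL 0 mM and TAL 70 mM in the respiratory, fatty acid oxidation and gluconeogenesis lists. It also parts from them in the heat shock, general stress surface, glycolysis and lysine synthesis lists, among others.

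Lists of mating type and sporulation genes had low mean levels on all arrays. The 6 kept a-specific mating genes of 7 had 0 members past the criterion, and their mean level ranged from -4.19 to -3.33 on the stress side and from -4.07 to -3.68 on the growth side. Of the 4 alpha-specific genes MF(ALPHA)2 (2.76, well above background on 4 of 6 growth-profile arrays) and SAG1 (1.24) were higher, with mean levels of -4.47 to -2.92 against -5.05 to -4.38. STE3 went the other way by -0.56, with medians of -3.66 on the stress side and -3.06 on the growth side and overlap between the sides. MF(ALPHA)1 had medians of -6.82 and -6.64, also with overlap. It was well above background on 3 of 6 stress-profile and 5 of 6 growth-profile arrays. Of 17 kept sporulation genes of 18 only SPS100, a spore wall gene, was higher (4.93), with 0.85 to 5.13 (median 3.09) on the stress side, and mean levels were -4.29 to -3.49 against -4.47 to -4.13. The part of mating type or sporulation genes in the side difference was not tested.

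The question of how alike the groups of 1 side were was tested with limma, which does not use the contrast that set the sides. Within the stress profile the groups differed most often, among the lists, in the respiratory genes, whose list median lay near the growth-profile level in control 70 mM and below it in TAL 0 mM. Of 6083 genes, 461 (7.58%) differed among control 70 mM, TAL 0 mM and TAL 70 mM at a Benjamini-Hochberg adjusted p under 0.05 by the limma F test, and 1706 at an unadjusted p under 0.05. Control 70 mM was the group standing apart in 233 of them (highest in 74, lowest in 159), TAL 0 mM in 224 (highest in 177, lowest in 47) and TAL 70 mM in 4. Of the genes higher on the stress side 35 of 546 differed, of the lower ones 32 of 707, and of the rest 394 of 4830. The count depended on single arrays, and was higher with the run number as a block, as given further below. It was 437 without control 70 mM run 1 but 2 without run 2, 8 and 4 without TAL 0 mM run 1 and run 2, and 191 and 116 without TAL 70 mM run 1 and run 2. It was 11 without either control 0 mM array, 19 without either TAL-ADH 70 mM array and 628 without either TAL-ADH 0 mM array, 188 after quantile normalization and 17 after normexp background correction.

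Of the 34 respiratory chain and ATP synthase genes 13 differed among the stress-profile groups, against 7.58% of all genes, and control 70 mM stood apart in 11 of the 13. These 13 were singled out after their values were seen. The list median relative to the growth-profile mean was 0.15 in control 70 mM, -0.90 in TAL 0 mM and -0.57 in TAL 70 mM. COX7, a cytochrome c oxidase subunit gene, had group means of 4.07, 1.59 and 2.93 against 2.69 ± 0.47 (SD, n = 6) on the growth side, so that control 70 mM lay above and TAL 0 mM below the growth profile. QCR9, of the cytochrome bc1 complex, had group means of 2.13, 0.54 and 1.30 against 1.54 ± 0.29. COX4 differed from both, since all 3 stress-profile groups (-0.11, -0.69 and -1.10) lay below the growth profile at 0.49 ± 0.11. ATP15, the ATP synthase epsilon subunit gene, had group means of 2.32, 0.99 and 1.70 against 2.04 ± 0.39. The part of the slide in these differences was not tested, since TAL 0 mM lay on another slide than control 70 mM and TAL 70 mM.

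**Figure D4:**
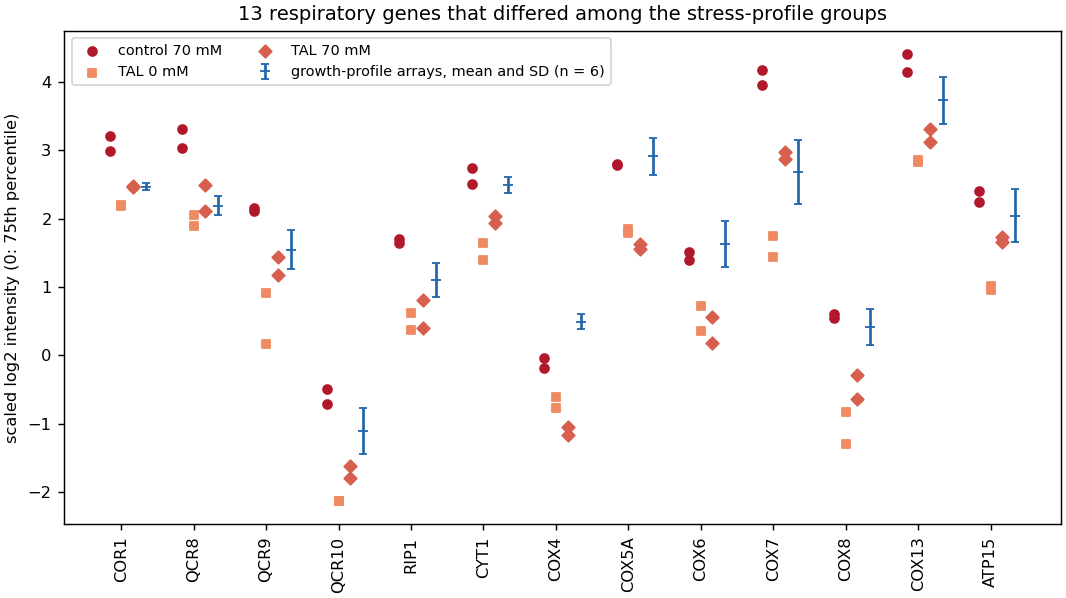
Scaled log2 intensity of the 13 respiratory chain and ATP synthase genes that differed among the stress-profile groups, with both runs of each stress-profile group as points and the growth-profile arrays as mean and SD (n = 6). Control 70 mM is the highest stress-profile group in all 13 genes, and TAL 0 mM is the lowest in 10 of them.

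Medians of other lists were spread among the 3 groups as well, with few calls. The list median relative to the growth-profile mean was 1.90 in control 70 mM for gluconeogenesis, against 1.03 in TAL 0 mM and 0.99 in TAL 70 mM. For fatty acid oxidation it was 1.61, 0.57 and 0.63, and for heat shock proteins and chaperones 2.46, 1.73 and 1.76. Proteasome genes ran the other way, at 0.71, 1.12 and 1.34. By the F test 2 of 17 gluconeogenesis genes, 2 of 16 fatty acid oxidation genes, 1 of 32 heat shock genes and 4 of 33 proteasome genes differed, and 4 of 138 cytosolic ribosomal protein genes, shares that run from below to somewhat above the 7.58% of all genes. The reductase genes ADH7 and OYE2 and the reductase reading frame YNL134C were the 3 called of 25 aldehyde reductases. ADH7 stood at -2.64 and -2.18 in control 70 mM, and between -0.42 and 0.57 in both TAL groups, against -4.19 to -3.45 on the growth side. OYE2 was highest in control 70 mM, with group means of 5.44, 4.33 and 4.51.

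The genes with the widest spread of group means among these calls, chosen by the rule for named genes, included URA3 and SIP18, a hydrophilin gene. SIP18 stood at -0.02 and 1.96 in control 70 mM, at -3.41 and -2.81 in TAL 0 mM and at -2.88 and -1.91 in TAL 70 mM (adjusted p = 0.0435, limma F test). MHF1, a gene of a DNA repair complex, was high in TAL 0 mM at -0.63 and 0.21, and lower in control 70 mM (-3.38 and -4.79) and TAL 70 mM (-2.94 and -3.06). Its level in TAL-ADH 0 mM, on the same slide as TAL 0 mM, was -0.99 and -0.29. The other ones were faint probes. YOL150C was not well above background in TAL 0 mM or on any growth-profile array and was at least 13.9-fold higher in control 70 mM than in TAL 0 mM (adjusted p = 0.00604, limma F test). YMR135W-A and YPL182C were likewise not well above background in TAL 0 mM, and control 70 mM was at least 16.7-fold and at least 11.2-fold higher. A lower bound of this kind sets the mean of the brighter group against the faintest signal that counted as well above background.

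Within the growth profile only AI4 and URA3 (0.0329% of 6083 genes) differed among its 3 groups by the limma F test (adjusted p = 0.0196 and 0.0215), and 277 genes did at an unadjusted p under 0.05. Without TAL-ADH 0 mM run 1 the count was 42. It was 0 without TAL-ADH 0 mM run 2 and without any single array of control 0 mM or TAL-ADH 70 mM. AI4 encodes a protein of a mitochondrial intron and was well above background on both TAL 0 mM arrays and 1 TAL-ADH 0 mM array only. Its lower bound for TAL-ADH 0 mM was 0.99-fold against control 0 mM and 1.23-fold against TAL-ADH 70 mM. The size of its difference within the growth profile is thus not known.

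URA3 followed neither the sides nor the dose label alone. It encodes orotidine-5'-phosphate decarboxylase of pyrimidine synthesis and is a common plasmid marker. Its level was 4.72 and 5.23 in control 70 mM, 3.27 and 4.11 in TAL 0 mM, and 0.64 and 0.03 in TAL 70 mM. On the growth side it was 4.46 and 4.86 in control 0 mM, 3.91 and 4.50 in TAL-ADH 0 mM, and 1.18 and 0.99 in TAL-ADH 70 mM. The 4 arrays labelled 70 mM of the TAL and TAL-ADH strains thus lay at least 2 log2 below the other 8 arrays, 2 on each side of the main axis. XKS1, the xylulokinase gene of xylose use, was also lowest on those 4 arrays, at 2.41 to 2.71 against 3.26 to 4.25 on the other 8, but was highest in control 0 mM. TAL1, the transaldolase gene, was lowest in control 70 mM, at 0.54 and 0.89, next in control 0 mM at 2.34 and 2.81, and between 2.77 and 4.46 in the TAL and TAL-ADH groups, so that the control strain was the lowest on each side. ADH1 ranged from 4.37 to 5.65 on the stress side and from 5.01 to 6.38 on the growth side, with overlap.

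**Figure D5:**
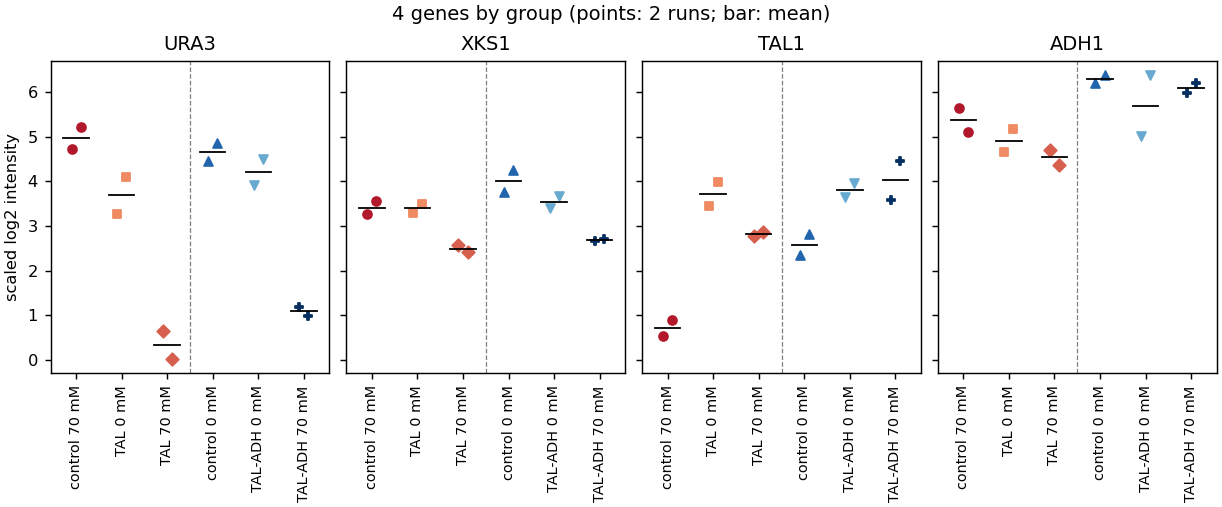
Scaled log2 intensity of URA3, XKS1, TAL1 and ADH1 on every array (points, 2 runs per group) with group means (bars), and a dashed line between the stress-profile groups on the left and the growth-profile groups on the right. URA3 and XKS1 are lowest in TAL 70 mM and TAL-ADH 70 mM, which lie on opposite sides of the main axis.

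The comparison of TAL 70 mM with control 70 mM, on 1 slide and 1 side, asks how the strains of the stress profile differ at the same dose label. URA3 fell by 4.64 ± 0.36 log2 (SE, n = 2 against 2, adjusted p = 0.00254 by limma). CIT3, for a mitochondrial citrate synthase, fell by 2.69 ± 0.33 (adjusted p = 0.0249) and GPP1, for glycerol-3-phosphate phosphatase, by 2.65 ± 0.36 (adjusted p = 0.0496). EFM6, for a lysine methyltransferase, rose by 1.84 ± 0.21 (adjusted p = 0.0235) and the reading frame YBR292C by 2.22 ± 0.24 (adjusted p = 0.0215). These 5 genes (0.0822% of 6083) were the calls, 2 higher (0.0329%) and 3 lower (0.0493%), and 984 genes had an unadjusted p under 0.05. With the run number as a block the calls were far more numerous, as given further below. TAL1 was 2.11 ± 0.34 higher with an adjusted p of 0.0628, and XKS1 0.91 ± 0.23 lower with an adjusted p of 0.139. The count was 44 without control 70 mM run 1 and 0 without run 2. It was 1 without any single array of TAL 0 mM, TAL 70 mM or control 0 mM, 2 without any single array of the TAL-ADH strain, 12 after quantile normalization and 2 after normexp. URA3 kept its call in each of these except without control 70 mM run 2 (adjusted p = 0.055).

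TAL-ADH 70 mM and control 0 mM also shared a slide and a side, while both the strain and the dose label differ between them. Their profiles were the closest of all pairs of groups, at r = 0.992 with 54 genes at least 1 log2 apart. URA3 fell by 3.58 ± 0.36 log2 (SE, n = 2 against 2, adjusted p = 0.0234 by limma) and IMA5, an isomaltase gene, rose by 2.19 ± 0.25 (adjusted p = 0.0287). These were the only calls (0.0329% of 6083), 1 in each direction (0.0164%), and 163 genes had an unadjusted p under 0.05. Without any single array of TAL-ADH or control 0 mM the count was 0, without any single TAL 0 mM or TAL 70 mM array it was 1, and after quantile normalization it was 1. TAL1 was 1.45 ± 0.34 higher (adjusted p = 0.958) and XKS1 1.31 ± 0.23 lower (adjusted p = 0.275), and neither passed the test.

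The TAL and TAL-ADH strains had both dose labels on 1 side, TAL in the stress profile and TAL-ADH in the growth profile. Over both strains, the mean change from 0 to 70 mM passed the limma test in 4 of 6083 genes (0.0658%), all lower at 70 mM, and 668 genes had an unadjusted p under 0.05. URA3 fell by 3.24 ± 0.26 log2 (SE, 2 arrays per group, adjusted p = 0.00142) and kept its call in every alternative run. AVL9, a gene of exocytic transport, fell by 1.25 ± 0.15 (adjusted p = 0.0316). YDL118W was well above background only in TAL 0 mM and TAL-ADH 0 mM and was at least 14.2-fold and at least 10.02-fold higher there than at 70 mM (adjusted p = 0.0331). AI4 was likewise higher at 0 mM, by at least 1.85-fold in TAL and 1.23-fold in TAL-ADH (adjusted p = 0.000167 by limma). After normexp background correction, though, its difference was 0.07 (adjusted p = 0.992 by limma). XKS1 was 0.88 ± 0.17 lower (adjusted p = 0.117), which did not pass. The count was 37 and 36 without TAL-ADH 0 mM run 1 and run 2, and 2 without any single array of TAL 0 mM, TAL 70 mM, TAL-ADH 70 mM or control 0 mM. It was 6 without either control 70 mM array. It was 7 after quantile normalization, 2 over the genes detected on all arrays and 1 after normexp. The count was higher with the run number as a block, as given further below. Whether the change with dose label differed between the strains was also tested, and 0 genes passed by limma (smallest adjusted p = 0.232), with 406 at an unadjusted p under 0.05. Both 0 mM groups lay on 1 slide and the 70 mM groups on the others, so the slide and the dose label cannot be told apart here.

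Genes with a wide spread of group means but a side difference under 0.5 log2 were led by URA3 and by faint probes. YDL151C, AI4, YDL118W, YBL073W, YDR015C and YDL068W had their highest group means in TAL 0 mM and TAL-ADH 0 mM, the groups that share a slide. YDL118W stood at -3.93 and -3.28 in TAL 0 mM and at -5.55 and -2.74 in TAL-ADH 0 mM, against -8.97 to -7.21 on the other 8 arrays. On that slide 3 control probes of the array were brighter too. The control probe eQC-42 ranged from 82 to 202 intensity units on its 4 arrays and from 8 to 15 on the other 8. Over all genes the deviations of TAL 0 mM and of TAL-ADH 0 mM from the means of their sides correlated at r = 0.145 across genes. Of the 224 genes in which TAL 0 mM stood apart within the stress profile, TAL-ADH 0 mM deviated the same way in 133, against 3414 of all 6083. The part of the slide in these values was not tested.

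Measures of the arrays as a whole were set side by side as well. The 75th percentile of gene probe intensity was 4863 ± 1628 (SD, n = 6) on the stress side and 4637 ± 1589 on the growth side. The share of gene spots well above background was 96.4% ± 0.968 and 95.9% ± 1.13, and the local background 20.7 ± 2.48 and 20.3 ± 2.44 intensity units. The sides overlapped in each of these 3 measures. The spike-in probes, which report RNA added to each sample in a fixed mixture, stood at -1.30 ± 0.46 log2 relative to the 75th percentile on the stress side and at -0.56 ± 0.48 on the growth side. The sides overlapped, from -2.03 to -0.75 against -0.95 to 0.38, and TAL-ADH 0 mM run 2 was the only array above 0. That difference of -0.74 had a two-sided exact permutation p of 0.00866 over the 12 arrays and an adjusted p of 0.0519 over 6 measures, which did not pass. This test treats the runs of a group as independent. When whole groups were exchanged, 3 against 3, the exact permutation p was 0.1, the smallest that this design allows. The part of the amount of RNA or of spike-in in the gene values was not tested.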

How the data were processed

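The 12 arrays were scanned and read with Agilent Feature Extraction 10.1.1.1, per the submitters' processing notes. Per the file headers, the deposited intensity of each spot had its background subtracted and was detrended over the array surface, with no normalization between arrays. The deposited log2 table holds the authors' own processed values. Its shift to the 75th percentile and its centring per probe were found from the values and its direction is that of the scanner values, which it matched within 0.00908 log2. Its column medians ran from -0.167 to 0.0547, and 60 of its 6316 probes were no gene probe.

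From the scanner files, log2 processed signals were averaged per probe over spots not marked as outliers (7 spots in all), and each array's 75th percentile over gene probes was subtracted. A probe was detected where over 50% of its spots were well above background, and 173 dim probes were left out. Of the kept genes 5798 were detected on all 12 arrays, and no probe was saturated. Names come from the RefSeq gene table (5756 probes matched, 500 kept the name on the array). Probe and promoter sequences were not used here. Values of a few genes are not reported here. limma 3.58.1 in R 4.3.3 was fitted to 6 group means with 6 residual degrees of freedom (prior SD 0.294, prior degrees of freedom 3.11, median SE 0.309) and tested on simulated data. Python 3.11.15, numpy 2.4.6, scipy 1.17.1, pandas 2.3.3 and matplotlib 3.10.9 did the rest.

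The number of arrays limits the precision. The 6 group means left no room for a slide term in the fit. Named genes were the 12 with the largest side difference each way, up to 3 per list with the list median and 1 against it, the largest calls of each test, TAL1, ADH1, URA3 and XKS1, the members of the pairs, and the 8 with the widest group means at a side difference under 0.5. Members given beyond that rule, where a list had few, were chosen after their values were seen. The sides, lists and pairs were chosen with earlier results of these data known, and the lists overlap in a few genes. Alternatives were quantile normalization, normexp (offset 50, on median signals, since the files used hold no mean signal), no filter on dim probes, genes detected on all arrays, the deposited log2 table, each array and each group left out, the slide of both sides, the run number as a block and, added after seeing the data, the exchange of whole groups for the array measures.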

Additional observations from a re-analysis of the deposited data

Results flagged for a closer look

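In 6 of 130 sets of 6 arrays examined, all on the growth side, 1 array lay far from the other 5, and chance alone flags about 1 in 20 such sets. TAL-ADH 0 mM run 1 had the lowest mean level of cytosolic ribosomal proteins, 2.19 against 2.62 to 2.81, and of respiratory chain and ATP synthase genes, 1.30 against 1.56 to 1.71. The same array had the highest mean level of ribosomal protein gene regulators, -0.72 against -1.10 to -0.98. TAL-ADH 0 mM run 2 had spike-in probes at 0.38 relative to the 75th percentile, against -0.95 to -0.55 on the other 5. TAL-ADH 70 mM run 1 had ergosterol synthesis genes at 1.55 against 1.30 to 1.38, and control 0 mM run 2 had glycerol metabolism genes at 0.37 against -0.10 to 0.04.

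Of 29 control probes, 3 were brighter on the slide shared by both engineered strains at 0 mM than on every array of the other slides, control 0 mM included. The probe eQC-41 ranged from 65.3 to 151 intensity units against 7.75 to 15.5, eQC-42 from 82 to 202 against 8 to 15, and ETG10_195139 from 34.8 to 79.5 against 6 to 15. What these probes measure is not given in the sources used here.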

How the results depend on the processing

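All 12 arrays stayed on their side of the main axis under quantile normalization, normexp, no filter, genes detected on all arrays and the deposited table (59.8% to 65.3% of variance). The genes higher and lower between the sides numbered 543 to 589 and 675 to 790 without single arrays. On the slide of both sides they numbered 754 and 784, of which 478 and 543 were among those over all arrays. With fewer arrays on each side, the criterion of no overlap is easier to meet there. Of 6079 values of named genes and 864 of list medians under the alternatives, 75 and 19 moved by more than the spread between arrays. Of the named genes past the criterion 0 changed sign. Their sign could change only under quantile normalization, normexp or the deposited table, since the other alternatives reuse the same values without overlap. Small medians of trehalose and glycogen, sporulation, purine and pyrimidine, histone and glycerol genes changed sign under some of the alternatives.

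Without single arrays the called genes numbered 2 to 628 within the stress profile, 0 to 42 within the growth profile, 0 to 44 for TAL 70 mM minus control 70 mM, 0 to 2 for TAL-ADH 70 mM minus control 0 mM and 2 to 37 for the dose label within sides. After quantile normalization they were 188, 1, 12, 1 and 7. After normexp they were 17 within the stress profile, 1 within the growth profile, 2 for TAL 70 mM minus control 70 mM and 1 for the dose label, and over genes detected on all arrays 1 within the growth profile and 2 for the dose label.

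With the run number as a block they were 1527, 357 (213 higher, 144 lower) and 50 within the stress profile, for TAL 70 mM minus control 70 mM and for the dose label, and 2 in each of the others. Deviations of same-numbered runs correlated at 0.0435 to 0.861, above 0.1 in 14 of 15 pairs of groups, and 1 pair of groups fell short of the 0.1 asked of every pair, so the numbers were not treated as pairing samples.

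ADH1 differed by 0.0362 between TAL 70 mM and control 70 mM after quantile normalization, against -0.84. Its change with dose label, 0.00777, was -0.297 after quantile normalization, -0.00117 after normexp and -0.333 to 0.349 without single arrays. The change of AI4 with dose label was 0.0672 after normexp, against -2.62.

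Without single arrays the side difference in the spike-ins was -0.85 to -0.55, in the 75th percentile -215 to 781, in the background -0.43 to 1.07, in spots well above background 0.32 to 0.94, in saturated spots 0 to 0.00183 and in the slope -0.0143 to -0.00431. With raw signals the spike-ins differed by -0.71 (adjusted p = 0.039, exact permutation test over arrays), and without TAL 0 mM run 2 by -0.85 (adjusted p = 0.026, same test). Exchanging whole groups, chosen after seeing the data, gave a smallest exact permutation p of 0.1 over the 6 measures. Faint probes limit what the tests show.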
